A study of Mus musculus with 6 samples.

Results

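The genes described here were those of glycolysis and of lactate export, 31 gene symbols taken in pathway order from the entry of glucose into glycolysis to the release of lactate. Members were found by gene name in the abundance table of each library, and this rule used no measured value. The 31 symbols gave 32 gene IDs, because *Aldoa* was listed under 2 IDs, of 56884 gene IDs in all. Abundance was read as TPM, which corrects for gene length and has a fixed total per library. Genes were tested where 3 or more of the 6 libraries reached 0.5 TPM, which held for 30 of the 31 genes and for 15426 genes of the whole series. All 30 in fact exceeded this level in every library, the lowest value being 1.72 (*Aldoc*). The exception was *Hkdc1*, a hexokinase-like gene, which lay between 0 and 0.0917 TPM and was not tested.

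PPARγ2, the adipocyte form of a nuclear receptor that drives fat cell differentiation, can be acetylated at lysine 382. A mouse cell line from the stromal vascular fraction (SVF) of subcutaneous white adipose tissue (scWAT) was made to overexpress, by retrovirus, either PPARγ2 K382Q, in which glutamine mimics the acetylated lysine, or PPARγ2 K382R, in which arginine mimics the deacetylated one. Both were induced to become beige adipocytes with isobutylmethylxanthine, indomethacin, dexamethasone, insulin, T3 and the PPARγ agonist rosiglitazone, and RNA was sequenced at day 2 from 3 biological replicates of each mutant. The question was how the state of lysine 382 affects gene expression early in beige differentiation. The lines were established by infection and selection in cells not said to lack their own *Pparg*, and whether the replicates of a mutant came from more than 1 infection is not given in the sources used here. No cells overexpressing unmutated PPARγ2 were among the 6 libraries. The p-values measure the spread between these replicates.

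Glycolysis splits glucose into pyruvate in the cytosol, with an investment of ATP in its upper part and a return of ATP and NADH in its lower part. Pyruvate either enters mitochondria or is reduced to lactate, which regenerates NAD and leaves the cell through monocarboxylate transporters. Brown and beige adipocytes are known for high glucose uptake and for releasing lactate when active.

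Depth, the total length of aligned reads, was 5.95 to 7.50 Gb in PPARγ2 K382Q- and 6.53 to 8.15 Gb in PPARγ2 K382R-overexpressing cells. The cells expressed adipocyte genes at this stage: summed TPM of 7 adipocyte markers was 52270 to 55970 in K382Q and 43840 to 45040 in K382R libraries, most of it *Fabp4*, and of the 7, 2 were higher and 4 lower in K382Q, *Adipoq* among the latter (log2 fold change −1.28), or 3 higher and 3 lower under median-ratio scaling of the libraries. The 2 higher ones, *Fabp4* (0.34) and *Cidec* (0.27), gave no call under quantile normalization (0.00 and 0.07), and *Fabp4* gave none without the filter on low values (adjusted p = 0.272). Also lower was *Pparg*, the overexpressed gene itself, at 1333, 1164 and 1104 TPM in K382Q and 1590, 1632 and 1612 TPM in K382R (log2 fold change −0.43, adjusted p = 0.000977). Transcripts of the construct and of the cells' own gene cannot be told apart in this value, and the part of this difference in the other results was not tested. At the protein level, the study described overexpression of both mutants as largely similar by Western blot. In its differentiated cells it described their protein levels as almost equal. Summed progenitor and fibroblast markers (9 genes, 5 tested, all 5 lower) were at 508 to 552 and 866 to 903 TPM, most of it *Ly6a* (log2 fold change −0.72), with *Thy1* past 2-fold (−1.25) and *Dpp4* at 0 in every library. The part of these markers in the differences of the glycolytic genes was not tested, and in bulk RNA fewer cells of a type and less RNA per cell cannot be told apart. Summed markers of other cells were below 10 TPM. The 6 leukocyte genes came to 3.60 to 4.76 and 3.42 to 5.20 TPM, nearly all of it *Cd68*, with *Adgre1* and *Cd3e* at 0. The 6 skeletal muscle genes came to 7.06 to 8.42 and 7.84 to 9.33 TPM, with *Des* higher (log2 fold change 0.57), *Acta1* lower (−0.94) and *Myod1*, *Myog* and *Myh4* at 0, and the 4 endothelial genes (mostly *Pecam1*), 4 neuronal genes and 3 erythroid genes (*Hba-a1* above 0 in 1 library, the others at 0) were lower still, with the neuronal *Tubb3* at 0 to 0.196 TPM in K382Q and 0.658 to 0.862 TPM in K382R (−1.17). Of 4 proliferation genes, 3 were lower in K382Q and *Mki67* gave no call (summed TPM 506 to 540 against 584 to 621). Under median-ratio scaling *Mki67* was higher (0.19, adjusted p = 0.00351), *Ccnb1* stayed lower, and *Top2a* and *Cdk1* gave no call. Beside all these marker counts, 36.9% of all tested genes were called lower and 11.1% higher. Under median-ratio scaling these shares were 20.4% and 19.8%.

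Most of the tested members were expressed at a higher level in PPARγ2 K382Q- than in PPARγ2 K382R-overexpressing cells. By limma with adjusted p under 0.05, 18 of the 30 tested members were higher, 3 were lower (*Galm*, *Adpgk* and *Pfkfb4*) and 9 gave no call. Over all 15426 tested genes the same rule called 11.1% higher and 36.9% lower. The median log2 fold change of the members was 0.28, against −0.14 for all tested genes. Scaling the libraries by median ratios moved the median of all genes to 0.00 and that of the members to 0.44. Under that scaling 20 members were higher and 2 lower, while 19.8% of all genes were higher and 20.4% lower. Among the called members, a fold change over 2 was passed by *Aldoc* and *Bsg*, both higher, and by no lower member. *Gapdh*, at a log2 fold change of 1.02, gave no call. Of all tested genes, 1.27% were called higher and 2.61% lower past 2-fold. The replicates of the mutants did not overlap for 19 members higher and 3 lower in K382Q, against 14.1% and 42.8% of all tested genes.

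The abundant members carried most of the difference. Of 13 members with a mean TPM of at least 100, 12 were higher, none was lower and *Gapdh* gave no call, with a median log2 fold change of 0.48. Of 17 members below that level, 6 were higher, 3 lower and 8 gave no call, with a median of 0.06. Among all tested genes at 100 TPM or more, 24.6% were called higher and 47.9% lower. Of those below that level, 9.32% were called higher and 35.5% lower, so calls in either direction were more frequent among abundant genes at large. Summed over the 31 symbols, the members took 2.58% ± 0.0823 of all TPM in K382Q and 1.73% ± 0.0192 in K382R libraries (SD, n = 3). With near-identical copies of the members elsewhere in the genome, mostly those of *Gapdh*, added, this was 4.64% ± 0.121 and 2.98% ± 0.00481. The size of the rise in abundant members varied with the processing. Across the alternatives, the log2 fold change ran from 0.15 to 0.56 for *Ldha* and from 0.19 to 0.61 for *Tpi1*. It ran from 0.23 to 0.65 for *Aldoa* and from 0.41 to 0.92 for *Pgk1*, and each of these genes stayed called.

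**Figure D1:**
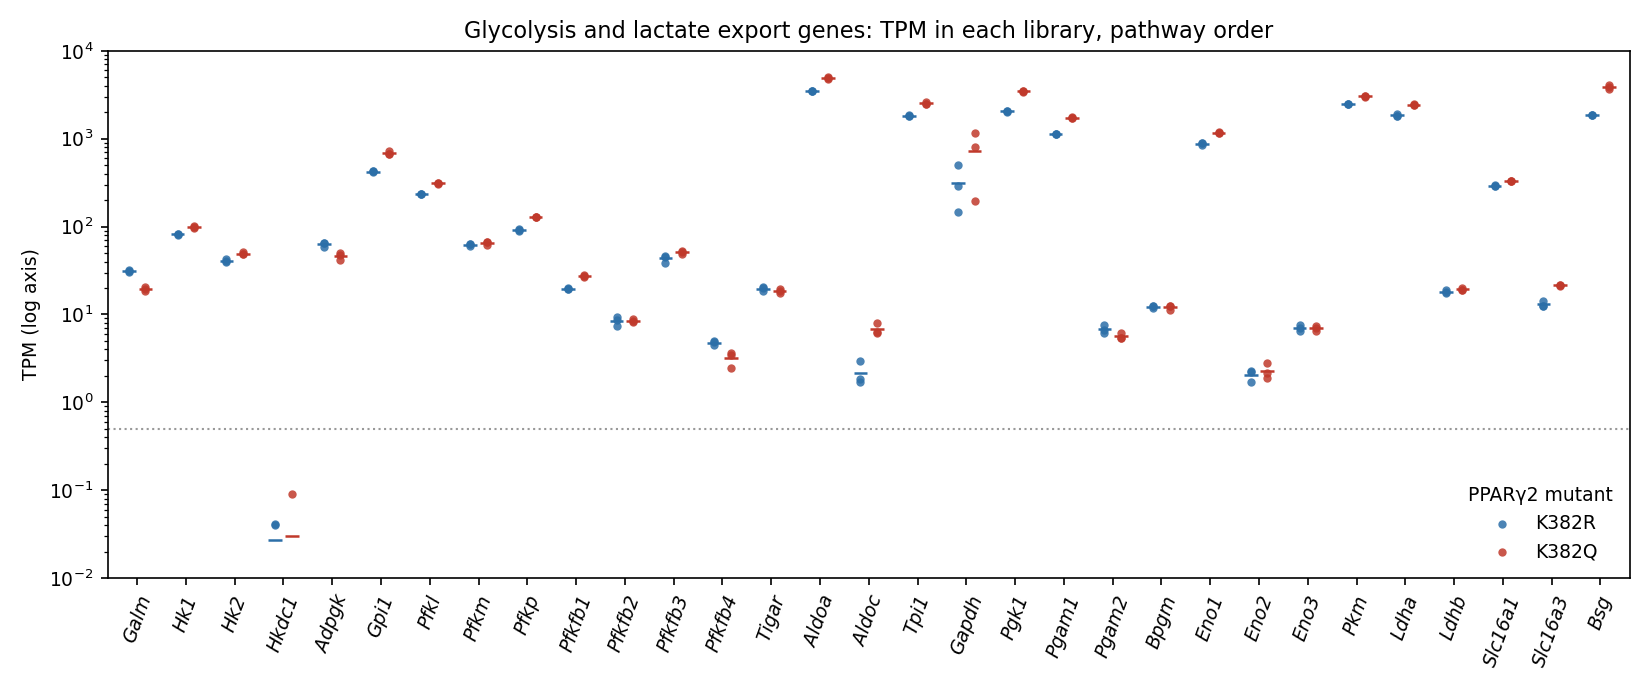
TPM (log axis) of each member in each of the 6 libraries, in pathway order, with K382Q and K382R replicates as separate points and short lines at the means; values at 0 are not drawn and the dotted line marks the TPM of 0.5 used as the filter. For most members the 3 points of each mutant lie close together, while *Gapdh* is spread from 148 to 1174 TPM.

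**Figure D2:**
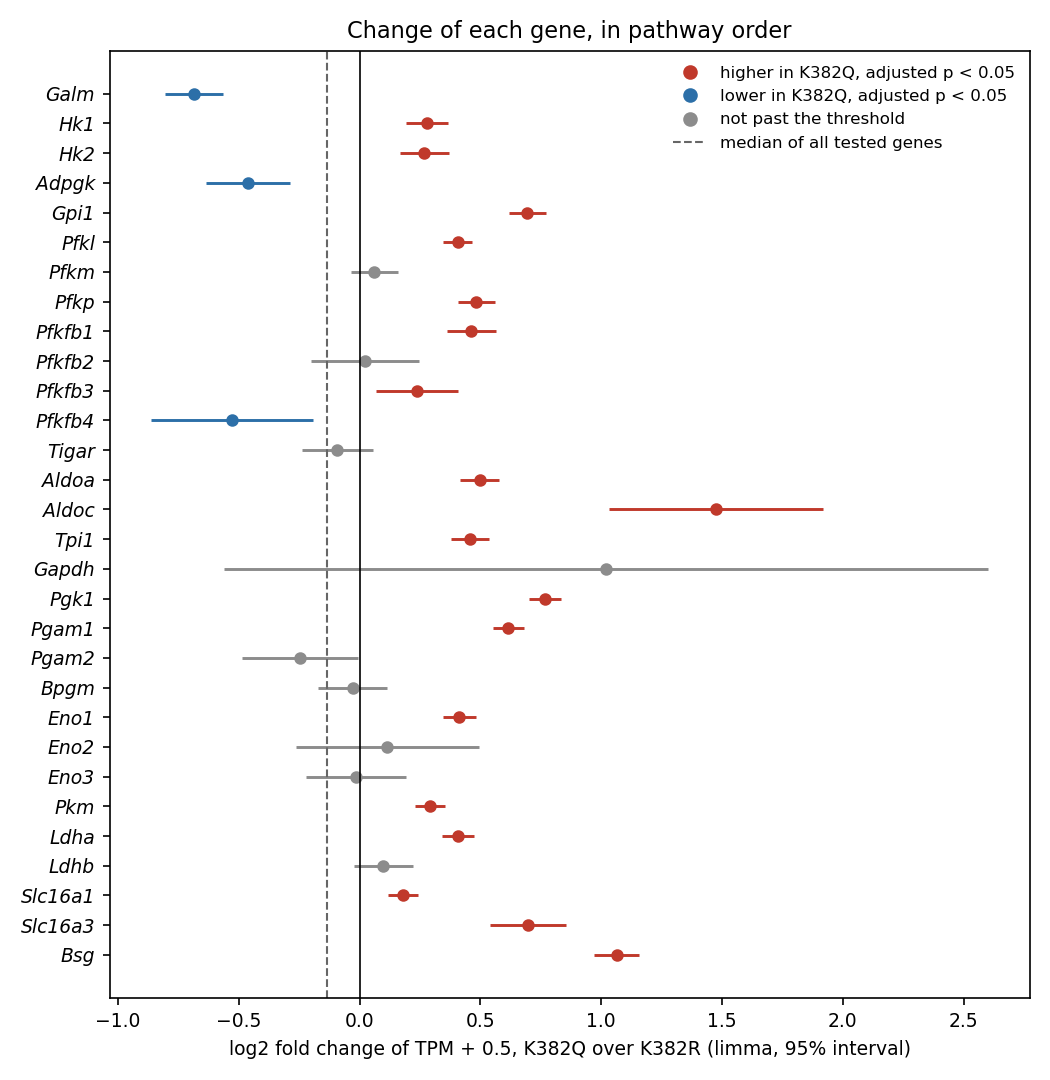
Log2 fold change of each tested member, K382Q minus K382R on the log2(TPM + 0.5) scale, with its 95% interval, and the median of all tested genes (−0.14) as a line. *Aldoc* (1.48) and *Bsg* (1.06) lie highest among the members called, and *Galm* (−0.68) lowest.

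Expression of the entry enzymes moved in both directions. *Galm* (chr17:80434900-80492530, GRCm39), the mutarotase that interconverts the anomers of the hexose, was at 18.5, 20.4 and 19.4 TPM in the K382Q replicates and 31.4, 32.5 and 30.7 TPM in the K382R replicates. It was the member that fell most, with a log2 fold change of −0.68 (SE 0.0517, adjusted p = 3.27e-05). *Hk1*, which encodes the hexokinase found in most tissues, was at 97.9, 103 and 96.8 TPM in K382Q and 82.3, 83.3 and 79.3 TPM in K382R, a rise of 0.28 on the log2 scale (SE 0.0371, adjusted p = 0.000556). *Hk2*, the insulin-regulated hexokinase of muscle and fat, stood at 48.3, 50.95 and 48.2 TPM against 40.25, 39.6 and 42.4 TPM, a similar rise of 0.27 (SE 0.0434, adjusted p = 0.00149). *Adpgk* encodes a glucokinase that uses ADP in place of ATP. Its TPM was 47.5, 41.2 and 49.5 in K382Q and 59.3, 65.7 and 65.4 in K382R, so that it fell by 0.46 (SE 0.0741, adjusted p = 0.00145). None of these 4 genes had overlapping replicates. Summed over *Hk1*, *Hk2*, *Hkdc1* and *Adpgk*, glucose phosphorylation came to 194 ± 0.636 TPM in K382Q and 186 ± 3.56 TPM in K382R (SD, n = 3), and of the higher steps it was the least different, at 1.05 times.

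*Gpi1* encodes the isomerase that turns glucose 6-phosphate into fructose 6-phosphate. It had 668, 715 and 672 TPM in K382Q and 424, 419 and 425 TPM in K382R, and rose by 0.69 on the log2 scale (SE 0.0330, adjusted p = 3.80e-06). At the next step, phosphofructokinase commits the sugar to glycolysis, and its subunits come from 3 genes named for liver, muscle and platelet. *Pfkl*, the liver type, was the most abundant, with 310, 314 and 306 TPM in K382Q against 232, 232.5 and 237 TPM in K382R (log2 fold change 0.41, SE 0.0261, adjusted p = 1.52e-05). *Pfkp*, the platelet type, was at 127, 127 and 127.5 TPM against 88.1, 90.7 and 93.8 TPM, a rise of 0.48 (SE 0.0329, adjusted p = 1.93e-05). *Pfkm*, the muscle type, overlapped between the mutants, with 66.2, 67.0 and 61.9 TPM in K382Q and 62.9, 63.0 and 60.9 TPM in K382R. Its log2 fold change was 0.06 (95% interval −0.03 to 0.16, adjusted p = 0.258). It was called higher under median-ratio scaling (0.21, adjusted p = 0.00498), quantile normalization (0.23, adjusted p = 0.00306) and in FPKM (0.14, adjusted p = 0.0275). As a result of these levels, the muscle type made up 12.95% ± 0.395 of phosphofructokinase TPM in K382Q and 16.1% ± 0.471 in K382R (SD, n = 3), while the platelet type made up 25.3% ± 0.372 and 23.5% ± 0.489. For both shares the exact two-sided permutation test gave p = 0.1, the smallest value that 3 against 3 replicates allow. Part of the exons of *Pfkl* and *Pfkp* overlap a gene on the other strand (*Cfap410* over 5126 of 12881 bases and *Pitrm1* over 1831 of 16462 bases), and whether reads were assigned by strand is not given in the sources used here. *Cfap410* lay between 17.6 and 20.0 TPM in all libraries, and *Pitrm1* was at 85.1 to 87.0 TPM in K382Q and 104 to 109 TPM in K382R. Likewise *Pfkm* shares 391 of 8967 exon bases with *Senp1* on the other strand, at 42.6 to 44.6 TPM in K382Q and 51.6 to 54.6 TPM in K382R. It also shares 1848 with *Gm26513* on the same strand, at 0.69 to 1.145 TPM. The part of reads from these neighbours in the values of *Pfkl*, *Pfkp* and *Pfkm* was not tested.

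Fructose 2,6-bisphosphate, the strongest activator of phosphofructokinase, is made and removed by the bifunctional enzymes of the *Pfkfb* family, and *Tigar* encodes a separate phosphatase of it. The 4 *Pfkfb* genes differed among themselves. *Pfkfb1*, the liver form, rose from 19.5, 19.5 and 19.9 TPM in K382R to 27.25, 26.6 and 27.9 TPM in K382Q, a log2 fold change of 0.46 (SE 0.0437, adjusted p = 9.65e-05). *Pfkfb3*, the inducible form whose kinase activity dominates, was the most abundant, at 52.0, 52.9 and 48.4 TPM in K382Q against 44.8, 46.7 and 38.6 TPM in K382R. Its rise of 0.24 (SE 0.0733, adjusted p = 0.0294) was not called without 1 of 3 libraries: leaving out K382Q replicate 1 gave 0.22 (adjusted p = 0.0754), leaving out K382Q replicate 2 gave 0.21 (adjusted p = 0.0898), and leaving out K382R replicate 3 gave 0.16 (adjusted p = 0.0559). It was called without any of the other libraries. *Pfkfb4* was low, at 3.50, 2.47 and 3.65 TPM against 4.91, 5.00 and 4.45 TPM. It fell by 0.53 (SE 0.144, adjusted p = 0.0181), and this call too was lost without K382R replicate 1 (adjusted p = 0.0542) or K382R replicate 2 (adjusted p = 0.0573), and likewise under median-ratio scaling (−0.39, adjusted p = 0.0617) and quantile normalization (−0.40, adjusted p = 0.0590). *Pfkfb2*, the heart form, overlapped at 8.32 to 8.80 TPM in K382Q and 7.31 to 9.33 TPM in K382R (log2 fold change 0.02, 95% interval −0.20 to 0.24, adjusted p = 0.866). *Tigar* also overlapped, at 17.4 to 19.7 and 18.6 to 20.3 TPM (log2 fold change −0.09, 95% interval −0.24 to 0.06, adjusted p = 0.276). Within the family, the share of *Pfkfb1* was 30.25% ± 1.13 in K382Q and 25.8% ± 1.70 in K382R, and that of *Pfkfb4* was 3.56% ± 0.732 and 6.28% ± 0.0805 (SD, n = 3, exact permutation p = 0.1 for each). The share of *Pfkfb3* was 56.7% and 56.9%, with overlapping replicates.

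Aldolase splits the bisphosphate into the triose phosphates. *Aldoa*, the muscle and general form, was the most abundant member as deposited. Its main ID (chr7:126394406-126399923) was at 5072, 4891 and 4763 TPM in K382Q and 3460, 3524 and 3445 TPM in K382R, a rise of 0.50 (SE 0.0342, adjusted p = 2.03e-05). The second ID of that name (chr7:126399962-126408280) held 21.8, 22.6 and 22.65 TPM against 15.1, 12.5 and 12.4 TPM. It shares 2320 exon bases with the main ID on the same strand, so the split of reads between them is uncertain. *Aldoc*, the brain form, was far lower, yet had the largest log2 fold change of the members called. It was at 6.22, 8.06 and 6.29 TPM in the K382Q replicates and at 1.72, 1.84 and 2.99 TPM in the K382R replicates, without overlap, a log2 fold change of 1.48 (SE 0.191, adjusted p = 0.000475). *Aldoc* remained a small part of the aldolase transcripts, at 0.139% ± 0.0219 in K382Q and 0.0626% ± 0.0206 in K382R (SD, n = 3). *Tpi1*, which interconverts the trioses, was at 2452, 2605 and 2497 TPM against 1819, 1805 and 1874 TPM, and rose by 0.46 (SE 0.0337, adjusted p = 2.83e-05).

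*Gapdh* encodes the dehydrogenase that oxidizes glyceraldehyde 3-phosphate and forms the NADH of the pathway. In the tables its own ID (chr6:125138678-125143430) stood at 194, 1174 and 797 TPM in K382Q and 148, 505 and 291 TPM in K382R. The replicates spread over 6.05 times within K382Q and 3.42 times within K382R, and the mutants overlapped. Its log2 fold change of 1.02 had an SE of 0.680 and a 95% interval of −0.56 to 2.60 (adjusted p = 0.258). It was called without K382Q replicate 1 (log2 fold change 1.79, adjusted p = 0.0201), and the other settings under which it was called are given with the processing alternatives. Among the other members at 100 TPM or more, the widest spread within a mutant was 1.10 times (*Bsg*).

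The mouse genome holds many processed copies of this gene. Searching the *Gapdh* transcript of GENCODE release M39 against all transcripts gave 82 genes outside its locus with at least 150 aligned bases at 95% identity or more, and 19 of them had a mean TPM over 100 in these libraries. A stretch of 150 coding bases, about the length of 1 read, was the same in *Gapdh* and in 16 of these 19 copies. The stretch in *Gapdh* (positions 665 to 814 of the transcript, GRCm39) and in the 3 copies that differ from it is shown because it carries how little separates them. Capitals mark the bases that differ from *Gapdh*.
Gapdh: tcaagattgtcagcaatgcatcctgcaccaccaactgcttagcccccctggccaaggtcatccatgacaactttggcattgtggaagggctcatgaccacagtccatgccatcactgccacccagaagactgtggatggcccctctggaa
Gm12033: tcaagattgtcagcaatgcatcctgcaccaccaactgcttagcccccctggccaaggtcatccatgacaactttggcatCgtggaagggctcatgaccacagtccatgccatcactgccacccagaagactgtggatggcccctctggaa
Gm12537: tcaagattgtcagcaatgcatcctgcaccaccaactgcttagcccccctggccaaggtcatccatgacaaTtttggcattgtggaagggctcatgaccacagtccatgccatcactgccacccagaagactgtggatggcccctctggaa
Gm13292: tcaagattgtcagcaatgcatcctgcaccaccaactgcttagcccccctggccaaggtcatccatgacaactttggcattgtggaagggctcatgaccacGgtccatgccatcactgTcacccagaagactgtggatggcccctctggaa

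A read that lies wholly in such an identical stretch cannot be assigned to 1 gene by its own sequence. The reads were paired, and how far the other read of a pair separates the copies was not tested. The copies held most of the TPM. Together the 82 copies were at 19278, 19538 and 18402 TPM in K382Q and 11552, 11066 and 11259 TPM in K382R. The *Gapdh* ID itself held 0.996%, 5.67% and 4.15% of the sum of *Gapdh* and its copies in the K382Q replicates and 1.26%, 4.36% and 2.52% in the K382R replicates. The sum was 19472, 20712 and 19198 TPM in K382Q and 11700, 11571 and 11550 TPM in K382R, without overlap. Tested as 1 gene, the family was higher in K382Q by 0.77 (SE 0.0413, 95% interval 0.67 to 0.87, adjusted p = 6.48e-06). This summing was chosen after the data were seen. Of the 54 copies that passed the filter, 51 were called higher and none lower, with a median log2 fold change of 0.78. They are not independent of each other, since they share reads. One of them, *Gm12671* (chr4:91739905-91740906), which matched *Gapdh* at every aligned base, was at 1598, 1671 and 1554 TPM against 981, 968 and 961 TPM.

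**Figure D3:**
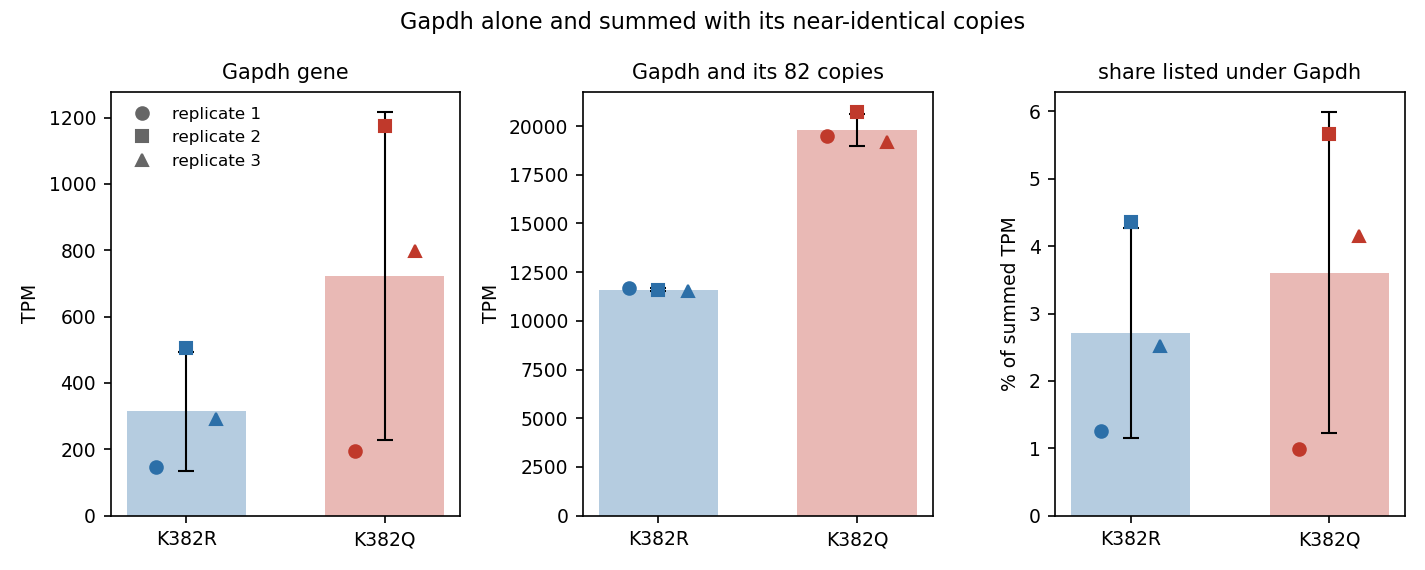
TPM in each library of the *Gapdh* ID alone and of the sum of *Gapdh* and its 82 near-identical copies, and the share of that sum (percent) listed under *Gapdh*, with bars for the mean and error bars for the SD of 3 replicates. Alone, *Gapdh* overlaps between the mutants (148 to 1174 TPM), while summed the K382Q replicates lie between 19198 and 20712 TPM and the K382R replicates between 11550 and 11700 TPM.

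*Pgk1* (chrX:105230706-105247305), which makes the first ATP of the lower part, was at 3398, 3478 and 3530 TPM in K382Q and 2022, 2053 and 2040 TPM in K382R, with an SE of 0.0288 around its log2 fold change of 0.77 (adjusted p = 1.37e-06). Counted from the highest log2 fold change down, it ranked 416 of the 15426 tested genes. *Pgam1*, the general phosphoglycerate mutase, was at 1701, 1763 and 1706 TPM against 1135, 1120 and 1118 TPM, a rise of 0.62 (SE 0.0277, adjusted p = 3.13e-06). *Pgam2*, the muscle mutase, gave no call at 6.22, 5.44 and 5.34 TPM against 7.60, 6.19 and 6.69 TPM (log2 fold change −0.25, adjusted p = 0.0840). All 989 exon bases of *Pgam2* lie opposite *Dbnl*, a gene at 76.0 to 84.2 TPM, so its low values are uncertain without strand. *Bpgm*, which makes the 2,3-bisphosphate that binds haemoglobin in red cells, overlapped at 11.3 to 12.4 and 12.0 to 12.4 TPM (log2 fold change −0.03, 95% interval −0.17 to 0.12, adjusted p = 0.744).

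Enolase was represented by *Eno1*, the general form, at 1150, 1192 and 1153 TPM in K382Q and 885, 856 and 883 TPM in K382R, a rise of 0.41 (SE 0.0289, adjusted p = 2.21e-05). Its transcript too has near-identical copies, by TPM mostly *Eno1b* and *Gm4735*, and *Eno1* held 49.7% to 52.9% of the sum in every library. How many reads could belong to more than 1 of them was not tested. Summed with its 3 copies it rose by 0.36 (SE 0.0325, adjusted p = 7.76e-05). *Eno2*, the neuronal form, was at 1.92 to 2.79 TPM against 1.73 to 2.30 TPM, and *Eno3*, the muscle form, at 6.51 to 7.34 against 6.43 to 7.63 TPM. Both overlapped and gave no call (log2 fold changes 0.12 and −0.01, adjusted p = 0.598 and 0.912). *Pkm*, the pyruvate kinase that makes the last ATP, was at 3026, 3074 and 3003 TPM against 2469, 2479 and 2489 TPM. It rose by 0.29 (SE 0.0271, adjusted p = 9.00e-05), the smallest rise among the members above 1000 TPM in both mutants. Under quantile normalization its difference was 0.02 and not called (adjusted p = 0.569).

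*Ldha* encodes the muscle-type subunit of lactate dehydrogenase, which favours the reduction of pyruvate. It was at 2415, 2436 and 2459 TPM in K382Q and 1817, 1810 and 1885 TPM in K382R, with an SE of 0.0292 around its log2 fold change of 0.41 (adjusted p = 2.49e-05). *Ldhb*, the heart-type subunit, was at 19.1, 20.0 and 19.1 TPM against 18.8, 18.1 and 17.4 TPM. Its replicates did not overlap, but its log2 fold change of 0.10 (95% interval −0.02 to 0.22) missed the threshold (adjusted p = 0.163). *Ldhb* made up 0.790% ± 0.0226 of lactate dehydrogenase TPM in K382Q and 0.976% ± 0.0562 in K382R (SD, n = 3, exact permutation p = 0.1), and the direction of this small shift turned under quantile normalization.

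Lactate leaves through monocarboxylate transporters, which need the chaperone basigin to reach the membrane. *Slc16a1* (MCT1), a transporter that works in both directions, was at 334, 331 and 329 TPM in K382Q and 293, 288 and 297 TPM in K382R, a rise of 0.18 (SE 0.0260, adjusted p = 0.000853). *Slc16a3* (MCT4), the export form of highly glycolytic cells, was at 21.1, 21.5 and 21.6 TPM against 14.4, 12.4 and 12.4 TPM. Its rise of 0.70 (SE 0.0681, adjusted p = 0.000116) brought it from 4.27% ± 0.354 to 6.07% ± 0.108 of the transporter TPM (SD, n = 3, exact permutation p = 0.1). *Csnk1d*, which lies opposite 4529 of its 11305 exon bases, was lower in K382Q, at 84.4 to 84.9 against 98.3 to 104 TPM, and its part in the value was not tested. *Bsg* (chr10:79540325-79547803), which encodes basigin, had the largest log2 fold change called among the members at 100 TPM or more. It was at 3673, 4057 and 3879 TPM in K382Q and 1860, 1840 and 1848 TPM in K382R, a log2 fold change of 1.06 (SE 0.0398, 95% interval 0.97 to 1.16, adjusted p = 1.36e-06). It ranked 176 of 15426 genes by the same count, and stayed called at 0.88 under quantile normalization, below 2-fold.

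When the isoenzymes of each step were summed, and *Gapdh*, *Eno1* and the other members were summed with their near-identical copies, 13 of the 14 steps were higher in K382Q in all replicates and the mutarotase was lower. Of all tested genes taken singly, 14.1% were higher and 42.8% lower in K382Q without overlap. Lactate export differed most, with 4222 ± 191 TPM in K382Q against 2155 ± 13.4 TPM in K382R (1.96 times), and this rested on *Bsg*. The transporters *Slc16a1* and *Slc16a3* without it came to 353 ± 2.06 and 306 ± 4.79 TPM (1.15 times, SD, n = 3, exact permutation p = 0.1). The steps at glyceraldehyde phosphate dehydrogenase and phosphoglycerate kinase were each 1.70 times higher, isomerase 1.62 times, phosphoglycerate mutase 1.52 times and aldolase 1.41 times. Triose phosphate isomerase, lactate dehydrogenase and phosphofructokinase were 1.37, 1.32 and 1.30 times higher, enolase 1.28 times and pyruvate kinase 1.22 times. The control of fructose 2,6-bisphosphate, whose sum includes the phosphatase *Tigar*, was 1.13 times higher. Each of these sums had an exact two-sided permutation p of 0.1, the smallest that the design allows, and *Gapdh* without its copies had p = 0.3.

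**Figure D4:**
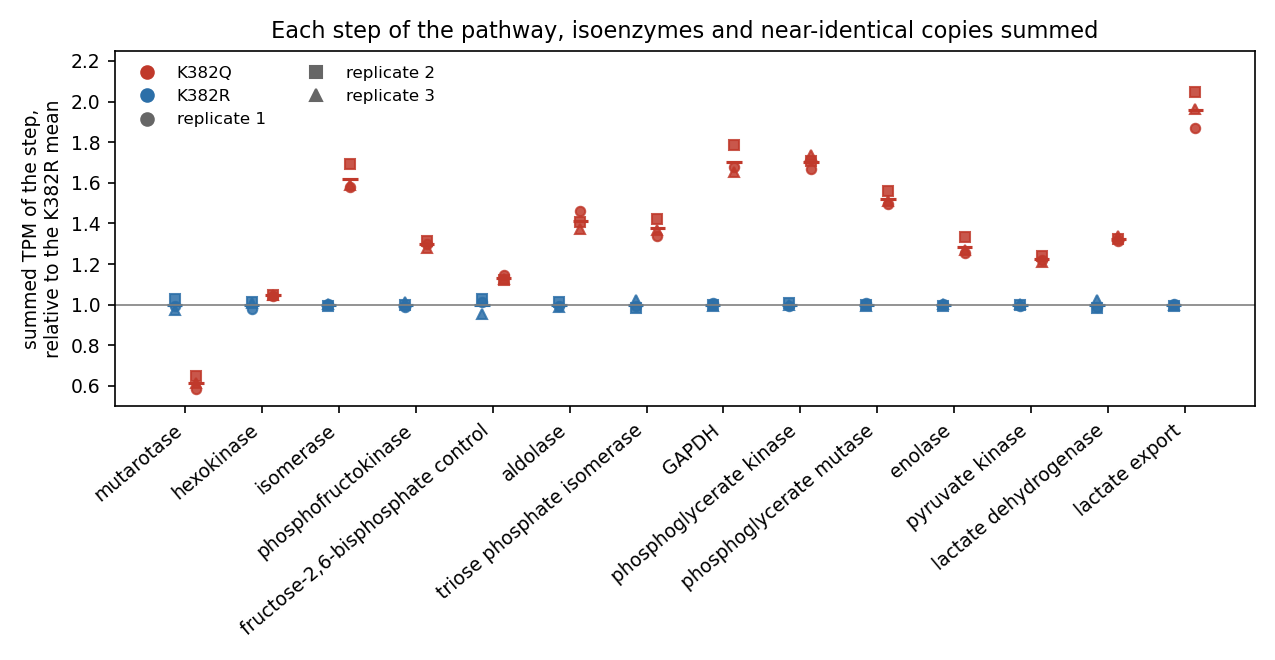
Summed TPM of each step relative to the mean of the K382R replicates, in pathway order. The genes of a step and their near-identical copies are summed, with 1 point per library and short lines at the means. The K382Q points lie above the K382R points at every step but the mutarotase, from 1.05 times at hexokinase to 1.96 times at lactate export.

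**Figure D5:**
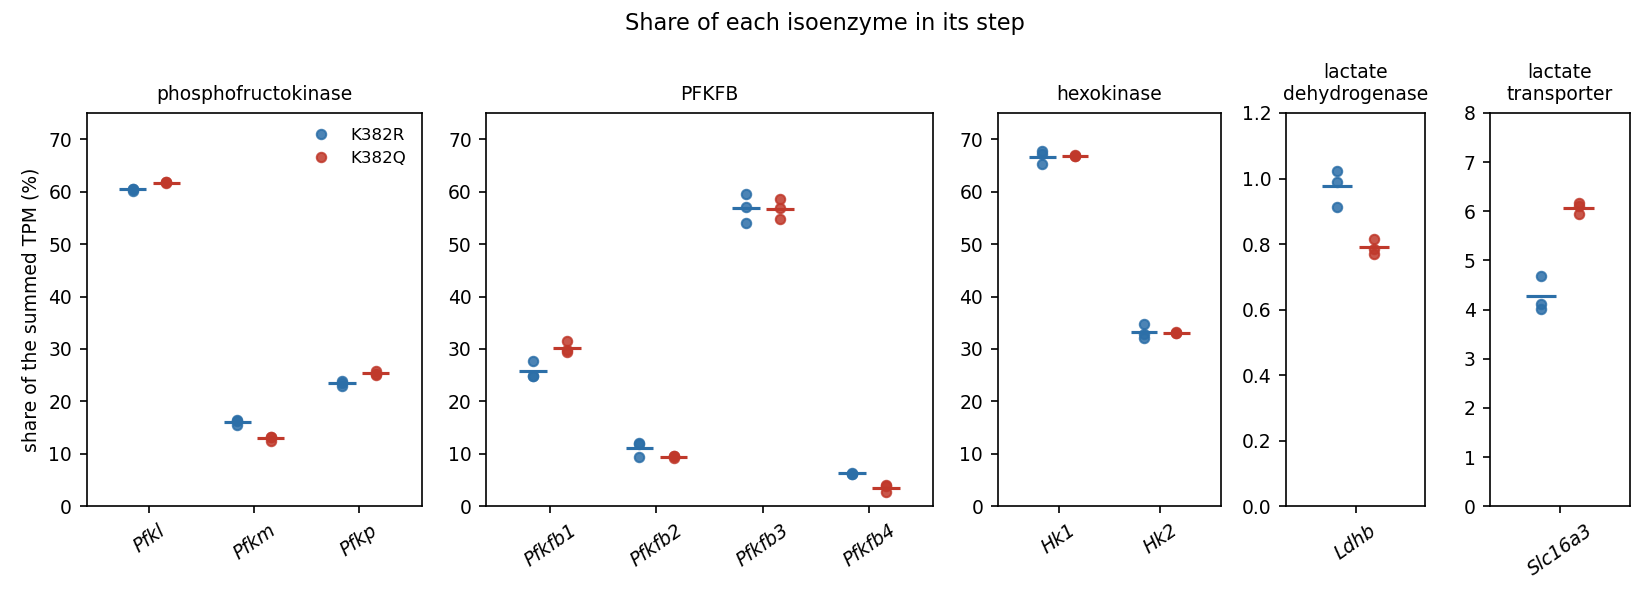
Share of an isoenzyme in the summed TPM of its step, in percent, with 1 point per library, a line at the mean and a separate scale for the last pair of panels. The muscle type *Pfkm* (12.95% against 16.1%) and *Pfkfb4* (3.56% against 6.28%) take smaller shares in K382Q, and *Pfkfb1* (30.25% against 25.8%) and *Slc16a3* (6.07% against 4.27%) take larger ones.

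Many glycolytic genes are known targets of HIF-1 and of MYC, whose binding sites contain the letters ACGTG or GCGTG (the core of the hypoxia response element) and CACGTG (the E-box). The 250 bases before the start site of each member's canonical GENCODE transcript were therefore searched for ACGTG and GCGTG on both strands, a CACGTG giving an ACGTG on each strand. The promoters of *Pgk1* (chrX:105230456-105230705), *Ldha* (chr7:46495013-46495262) and *Bsg* (chr10:79539893-79540142) are shown because these members rose while their promoters differ in these letters. They are given on the plus strand of GRCm39, with the matched letters in capitals.
Pgk1: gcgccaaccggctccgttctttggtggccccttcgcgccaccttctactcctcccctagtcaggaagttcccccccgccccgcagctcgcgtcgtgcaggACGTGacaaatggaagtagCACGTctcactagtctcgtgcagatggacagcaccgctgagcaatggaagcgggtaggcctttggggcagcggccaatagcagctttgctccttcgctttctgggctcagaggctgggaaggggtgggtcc
Ldha: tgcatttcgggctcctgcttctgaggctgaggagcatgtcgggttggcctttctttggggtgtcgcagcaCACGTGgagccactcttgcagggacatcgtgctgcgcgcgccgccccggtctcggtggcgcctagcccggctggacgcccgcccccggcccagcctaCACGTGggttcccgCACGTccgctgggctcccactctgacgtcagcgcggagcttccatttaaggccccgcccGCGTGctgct
Bsg: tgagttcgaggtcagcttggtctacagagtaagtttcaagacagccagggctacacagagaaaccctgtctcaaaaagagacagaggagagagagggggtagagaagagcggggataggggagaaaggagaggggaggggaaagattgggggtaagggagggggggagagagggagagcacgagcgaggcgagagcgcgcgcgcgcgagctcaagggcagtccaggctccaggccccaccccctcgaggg

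*Pgk1* had 2 matches, beginning at −150 and −131 relative to the start site, *Ldha* had 6, in which CACGTG occurs at 2 places, and *Bsg* had none in this window. At least 1 match was found for 16 of the 31 members (51.6%), against 41.3% of 21667 protein-coding genes and 53.4% of the 12183 among them that were tested. ACGTG, with or without GCGTG, was found in 32.3% of members and 21.3% of tested genes. GCGTG, with or without ACGTG, was found in 32.3% and 41.9%, and CACGTG in 12.9% and 7.73%. Of the 18 members that rose, 10 held a match, as did 1 of the 3 that fell and 5 of the 9 without a call. A match says only that the letters occur.

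Of 7 transcription factors known to act on glycolytic genes, 6 were lower in K382Q and 1 higher, where 36.9% and 11.1% of all tested genes were. Under median-ratio scaling 4 were lower and 1 higher, *Mlx* and *Mlxip* losing their calls. *Myc* was at 70.1, 71.6 and 66.8 TPM in K382Q and 96.3, 102.5 and 105 TPM in K382R (log2 fold change −0.54, adjusted p = 4.80e-05). *Arnt*, which encodes the partner subunit of HIF-1, was at 55.2, 53.6 and 51.4 TPM against 65.5, 66.7 and 65.6 TPM (log2 fold change −0.30, adjusted p = 0.000403), and *Epas1* was lower as well. *Hif1a*, the oxygen-regulated subunit, was at 204, 182 and 187.5 TPM against 332, 329.6 and 347 TPM (log2 fold change −0.81, adjusted p = 7.41e-06). The one that rose was *Mlxipl*, which encodes the glucose-sensing factor ChREBP, at 11.1, 8.82 and 11.1 TPM against 6.35, 6.03 and 5.34 TPM (log2 fold change 0.75, adjusted p = 0.000935).

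The genes that bring glucose into the cell and that decide the fate of pyruvate held further differences past 2-fold. *Slc2a4*, the insulin-responsive transporter GLUT4, rose from 21.2, 18.5 and 20.65 TPM in K382R to 43.5, 48.4 and 46.7 TPM in K382Q (log2 fold change 1.18, SE 0.0652, adjusted p = 6.93e-06). *Slc2a1*, the basal transporter GLUT1, was at 157, 167 and 151 TPM against 85.2, 86.4 and 86.55 TPM, a rise of 0.87 (SE 0.0414, adjusted p = 3.80e-06). Of 14 genes for the entry of pyruvate into mitochondria, 7 were higher and 1 lower, or 11 and 1 under median-ratio scaling. Over all tested genes 11.1% were higher and 36.9% lower, or 19.8% and 20.4% under that scaling. These shares also apply to the lists that follow. *Dld*, 1 of the 7 (log2 fold change 0.10, adjusted p = 0.0388), lost its call under several alternatives, such as without K382R replicate 1 (adjusted p = 0.128). *Pdk1*, a kinase that inactivates pyruvate dehydrogenase, was at 71.3, 71.4 and 71.1 TPM against 31.2, 31.1 and 30.9 TPM (log2 fold change 1.19, SE 0.0326, adjusted p = 3.97e-07). *Pdk4*, a kinase of the same enzyme, was at 328, 322 and 327.5 TPM against 163, 163 and 157.5 TPM (log2 fold change 1.01, SE 0.0282, adjusted p = 3.99e-07). Of the carrier subunits, *Mpc1* was higher (log2 fold change 0.40, adjusted p = 0.0132, or 0.0614 and not called without the filter on low values) and *Mpc2* lower (log2 fold change −0.33, adjusted p = 0.000119), while *Pdha1*, a subunit of the dehydrogenase, gave no call at 287 to 307 and 288 to 298 TPM.

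In the pentose phosphate branch, which leaves glycolysis at glucose 6-phosphate, 1 of 8 genes was higher (*Pgls*, log2 fold change 0.29) and 2 were lower (*H6pd*, −0.42, and *G6pdx*, −0.23), and the most abundant, *Taldo1*, gave no call. Under median-ratio scaling the balance of this branch turned to 4 higher and 1 lower, and *G6pdx* gave no call (−0.08, adjusted p = 0.0618). Of 6 genes for glycerol 3-phosphate and serine synthesis, 2 were higher and 2 lower (3 and 1 under median-ratio scaling). *Gpd1*, which makes the glycerol phosphate of triglycerides, was at 1073, 1138 and 1101 TPM against 861, 870 and 850 TPM (log2 fold change 0.36, adjusted p = 5.78e-05). The other higher gene, *Psat1* (0.08, adjusted p = 0.0431), gave no call under quantile normalization (−0.01, adjusted p = 0.897). Its call was also lost on leaving out K382Q replicate 1 or 3, or any K382R replicate. Of 5 tested enzymes that run against glycolysis, *Pck2* (0.32) and the low *Fbp2* (0.97) were higher and *Pcx* (−0.15), which carboxylates pyruvate, was lower, a call that median-ratio scaling removed (0.00, adjusted p = 0.972). Of 7 genes of the shuttles that carry NADH electrons into mitochondria, 3 were higher and 2 lower (5 and 1 under median-ratio scaling). Among them were *Mdh1* (0.34) and *Got2* (−0.48), while *Mdh2*, the most abundant, gave no call. The calls of *Got1* (0.12) and *Slc25a13* (−0.31) were lost on leaving out some single libraries, such as K382Q replicate 3 (adjusted p = 0.0741 and 0.1105). Of 14 further isoenzymes and transport proteins, 5 were expressed enough to test, with *Eno1b* higher and *Minpp1*, a phosphatase of bisphosphoglycerate, lower (−0.51).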

How the data were processed

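RNA-seq of 6 libraries (NEBNext Ultra kit, paired reads of 150 bases) was processed by the authors with HISAT2 against GRCm39 and StringTie, per the labels and the methods of the study. The annotation release is not given in the sources used here. The authors deposited 1 StringTie gene table per library with coverage (mean read depth per base, a signal that is not normalized), FPKM and TPM. The deposited TPM and FPKM are relative, so they give shares of the transcripts and not amounts. Entries that repeated a gene ID (3 to 5 per library) were summed. Counts were not analysed here, so precision comes from 3 replicates per group, and depth was derived by dividing coverage by FPKM, taking the most frequent value over genes.

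Genes that reached 0.5 TPM in 3 or more libraries were kept. K382Q was compared with K382R by limma 3.58.1 in R 4.3.3, using log2(TPM + 0.5), a variance prior that follows intensity, and Benjamini-Hochberg adjustment over 15426 genes. Fold changes on this scale understate those of low genes. The threshold was an adjusted p of 0.05, and for calls past 2-fold also a fold change over 2. Sums over the genes of a step and shares of isoenzymes were compared by the exact two-sided permutation test. Scripts were tested on simulated data. Near-identical copies were found with BLAST 2.17.0 over GENCODE release M39, and promoters were read from GRCm39 at its canonical transcripts. Other steps ran in Python 3.11.15 (numpy 2.4.6, pandas 2.3.3), and plots were drawn with matplotlib 3.10.9.

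The members and the other gene lists were chosen with earlier results of these data known. All members are named. Of the other lists, mostly those genes are named that passed 2-fold, were the most abundant of a list or were singled out after their values were seen. Alternatives were other pseudocounts, filters, scalings and variance settings, FPKM, array weights, a replicate block, leaving out each library, a 1.5-fold threshold, and sums with copies.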

Additional observations from a re-analysis of the deposited data

How the results depend on the processing

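Of the 21 called members, 18 kept their call and direction under every alternative run, and *Pkm*, *Pfkfb3* and *Pfkfb4* lost theirs under some. The median log2 fold change of the members was 0.37 with FPKM and 0.44 with median-ratio scaling. Its distance above the median of all genes, 0.42 in the TPM as deposited, was 0.33 without a filter and 0.26 with quantile normalization. Members higher past 2-fold numbered 1 with quantile normalization and 6 with a threshold of 1.5-fold, where 1 was lower. Leaving out 1 library at a time gave 17 to 18 higher and 2 to 3 lower members, 2 to 3 higher past 2-fold (the third being *Gapdh*, without K382Q replicate 1) and medians of 0.27 to 0.30. *Pfkfb3* lost its call without a filter (adjusted p = 0.0927) and without the intensity trend (adjusted p = 0.0672). *Pfkfb4* lost its call without a filter (adjusted p = 0.0668), with median-ratio scaling (adjusted p = 0.0617) and with quantile normalization (adjusted p = 0.0590). *Ldhb* and *Pfkm* were called higher under quantile normalization, under median-ratio scaling and in FPKM. *Pkm* was at 0.02 under quantile normalization and not called. Under quantile normalization the difference in the share of *Ldha* was −0.0662 percentage points and that of *Ldhb* 0.0662. *Gapdh* was called when summed with its copies (0.77) or with those named as its pseudogenes (0.93, adjusted p = 0.0247). Across genes, the deviations of same-numbered libraries were hardly correlated (−0.0177, 0.0507 and 0.0223), which does not settle whether the libraries were paired. For the *Gapdh* ID, replicate 1 was lowest and replicate 2 highest in both mutants. With the replicate number as a block, 19 members were higher, 3 lower and 3 past 2-fold, *Gapdh* becoming called (adjusted p = 0.00684), and no other call among the members changed. The causes were not tested.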

Other observations

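The near-identical copies of *Gapdh* also bear on lists of genes drawn from these tables. Of all genes called higher in PPARγ2 K382Q-overexpressing cells, 2.97% were such copies, and 4 copies passed 2-fold. Reads that lie wholly in stretches identical to *Gapdh* cannot be told apart by their own sequence. The ID of *Gapdh* itself, a common reference gene, differed 6.05 times between replicates of K382Q and 3.42 times between those of K382R. Summed with its copies, it lay between 19198 and 20712 TPM in K382Q and between 11550 and 11700 TPM in K382R. The log2 fold change of this sum was 0.77.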
